A study of Mus musculus with 32 samples.

Results

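Prospermatogonia from Taf4b-deficient embryos were compared with prospermatogonia from wildtype embryos of embryonic age E14.5. The comparison used 8 of the 32 RNA libraries in the study, 4 per genotype, taken by the genotype and age in their labels. Genes with a mean of at least 1 TPM (transcript abundance scaled by length and library) over the 7 libraries other than deficient library 1, which carried much RNA of other cell types, were taken as germ-cell-expressed, which gave 12466 of 55536 genes. The rule used level only, not genotype: Eif3s6-ps3 was just inside it at 1.00004 TPM and Dnase1l1 just outside at 0.99992 TPM. It did not exclude genes of other cell types. Of the marker genes used below, 14 of 16 Sertoli, 5 of 7 Leydig, 4 of 13 interstitial and 4 of 10 endothelial genes met it. So did 3 of 10 macrophage, 2 of 9 red cell and 0 of 6 mesonephric genes. The name thus stands for a level in these libraries, not for expression by germ cells alone. Of the germ-cell-expressed genes, 12269 had enough counts to be tested.

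Every embryo came from mating mice that carried the Taf4b mutation on 1 chromosome copy and the Oct4-EGFP transgene (line B6;129S4-Pou5f1tm2Jae/J) on both, so the wildtype embryos carried the reporter as well. The labels give the strain as C57BL/6 and the sex as male. Gonads were dissociated with trypsin, and live cells were sorted by EGFP fluorescence, a reporter of Oct4 (Pou5f1), which fetal germ cells express. Whether a library holds the cells of 1 embryo or of a pool is not given in the sources used here, so p-values measure the spread between these libraries. The 8 libraries came from 4 litters. Wildtype 1 and deficient 1 shared a litter, wildtype 2 shared another with deficient 2 and 3, wildtype 3 and 4 shared a litter of their own, and deficient 4 came from the last.

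TAF4b is a paralogue of TAF4, a core subunit of TFIID. TFIID is the general transcription factor that recognises the core promoter and places RNA polymerase II at the start of a gene, and TAF4b is enriched in the germ cells of the ovary and testis. Prospermatogonia are the fetal male germ cells that will found the spermatogonial stem cell pool. Around this age they leave the mitotic cycle, switch off pluripotency genes, are kept from entering meiosis, and begin to switch on the piRNA pathway and de novo DNA methylation, which together silence transposons.

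The libraries held 28.3 to 44.1 M (mega) counted reads, with a mean of 40.7 ± 4.91 M in wildtype (SD, n = 4) and 34.4 ± 6.71 M in deficient libraries (SD, n = 4). A count of 3, taken as the floor, was worth 0.0681 to 0.106 CPM (counts divided by the scaled size of the library). Deficient 1 stood apart. Its summed level of 19 germ cell identity genes was 3348 CPM, against 6437 to 7538 CPM in the other 7 libraries. Its summed level of markers of 7 other gonadal cell types was 14055 CPM, against 261 to 1288 CPM elsewhere. Interstitial cell genes such as Col1a1, Col3a1 and Dcn summed to 4060.3 CPM in deficient 1, 57.9 times the next highest library. Leydig cell genes (steroid synthesis: Cyp11a1, Cyp17a1, Hsd3b1) summed to 4702 CPM there, and red cell genes (globins) to 1874 CPM.

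The remaining 7 libraries also differed in these markers. Leydig genes summed to 712 CPM in wildtype 1, 299.9 in wildtype 3 and 176 in wildtype 4, but to 10.0 CPM in wildtype 2 and to 126, 20.2 and 17.2 CPM in deficient 2 to 4. Sertoli genes (Sox9, Amh, Clu and others) summed to 84.1 to 319 CPM in wildtype and to 786, 151 and 111 CPM in deficient 2 to 4. Macrophage genes stayed at 1.72 to 11.0 CPM in all 8 libraries, and the mesonephric genes at 1.99 to 4.05 CPM outside deficient 1, where they summed to 16.3. In bulk RNA, fewer cells of a type and less RNA per cell cannot be told apart. Fold changes are therefore given over 8 libraries and over the 7 without deficient 1.

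**Figure D1:**
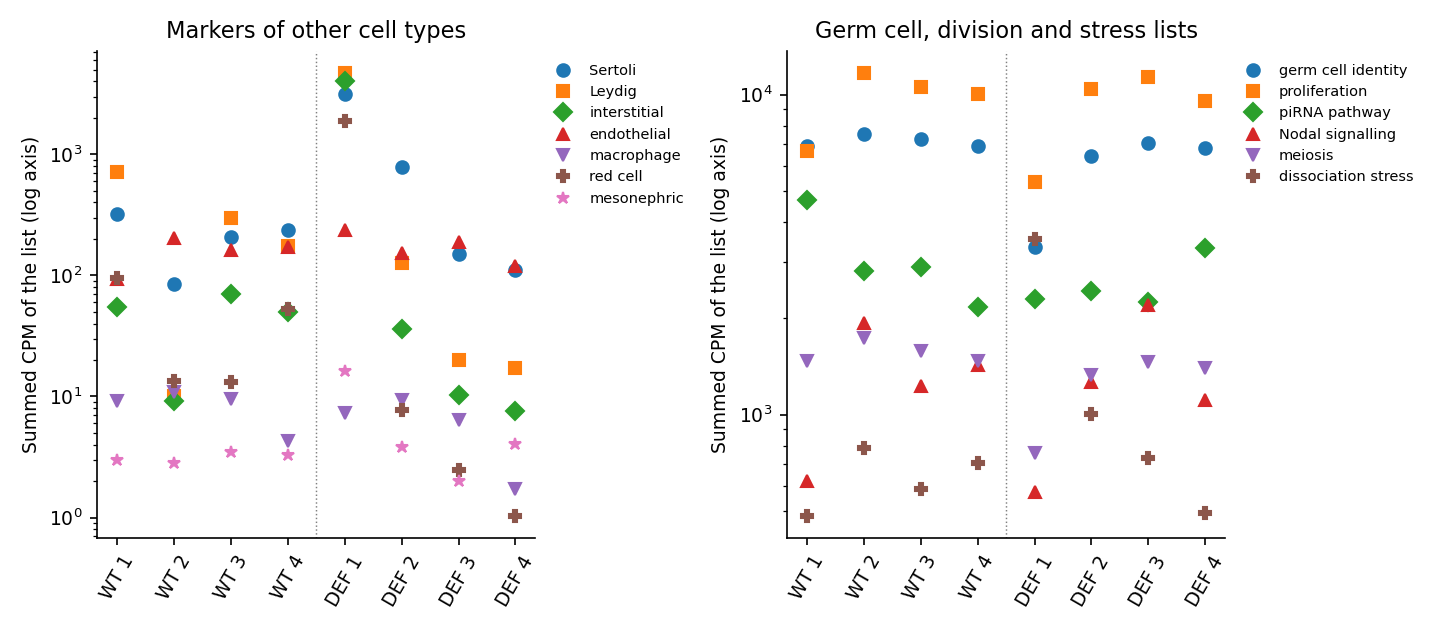
Summed level of each gene list in each E14.5 library, in CPM on a log axis, for 7 lists of other cell types and 6 germ cell, division and stress lists; each point is 1 library. Deficient 1 has the highest interstitial (4060.3 CPM), Leydig (4702 CPM) and red cell (1874 CPM) sums and the lowest germ cell identity sum (3348 CPM).

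Taf4b itself (ENSMUSG00000054321, GRCm38 chromosome 18, 14783245 to 14900359) was measured at 223, 170.4, 157 and 125 CPM in wildtype 1 to 4. In deficient 1 to 4 it was at 23.6, 22.5, 39.9 and 32.6 CPM. The groups did not overlap, and the gap between the lowest wildtype and the highest deficient library was wider than the range within the deficient group and narrower than the range within wildtype. The mean was 169 ± 40.9 CPM in wildtype and 29.7 ± 8.19 CPM in deficient libraries (SD, n = 4 each), so the deficient mean was 17.6% of the wildtype mean, or 18.8% without deficient 1. A two-sided exact permutation test on log2(CPM + 1) returned p = 0.0286, the lowest value within reach of this design. With 7 libraries the exact test returned 0.0571, again the lowest within reach. The edgeR quasi-likelihood log2 fold change was -2.51 ± 0.25 (SE), with a Benjamini-Hochberg adjusted p of 0.0822 over all genes tested, and -2.41 ± 0.26 with an adjusted p of 0.213 without deficient 1. The DESeq2 Wald test called Taf4b over 8 (-2.51, adjusted p 1.26e-13) and over 7 libraries (-2.40, adjusted p 3.32e-13). Counts are summed over the whole gene, and the exons that the mutation removes are not given in the sources used here, so the residual reads do not tell which transcript they come from.

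The other TFIID genes were not lower in the way Taf4b was. Of 17 tested, 8 were higher and 9 lower in the deficient mean, with a median log2 fold change of -0.04, beside 0.02 over all genes tested. Without deficient 1, 9 were higher and 8 lower, with a median of 0.10 beside -0.01 over all genes. None passed the test. Per transcript length, the TFIID genes with the highest mean levels were Tbp, the TATA-binding protein, at 153 TPM, then Taf6 at 58.9 TPM and Taf7 at 52.1 TPM. Taf4, the paralogue of Taf4b, was low, at a mean of 1.44 TPM. Tbp was at 125, 118, 117 and 107 CPM in wildtype and 91.2, 125, 133 and 139.9 CPM in deficient libraries (0.07 ± 0.15 over 8, 0.20 ± 0.11 over 7), so deficient 1 was the lowest of the 8 libraries and deficient 3 and 4 were the highest. The counts of Taf4 stood at 4.59, 3.89, 3.53 and 5.61 CPM in wildtype and 5.96, 4.65, 7.07 and 4.34 CPM in deficient libraries, which overlap (log2 fold change 0.32 ± 0.28 over 8 and 0.29 ± 0.27 over 7 libraries).

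Taf13, a histone-fold subunit that pairs with Taf11, was the TFIID gene that was higher in every deficient library. It was at 19.4, 20.3, 16.3 and 15.98 CPM in wildtype and at 38.5, 22.6, 24.5 and 25.3 CPM in deficient libraries. Over all genes tested, 1.3% were higher in every deficient than in every wildtype library, and 1.41% were lower. The log2 fold change of Taf13 was 0.62 ± 0.22 over 8 and 0.43 ± 0.17 over 7 libraries, with edgeR adjusted p of 0.909 and 0.958. Taf12, the histone-fold partner of the Taf4 proteins, was at 29.6, 46.3, 32.8 and 41.6 CPM in wildtype and at 42.1, 57.0, 73.8 and 48.9 CPM in deficient libraries. Deficient 1 lay within the wildtype range and the other 3 lay above it (0.56 ± 0.22 over 8 libraries, 0.69 ± 0.21 over 7, unadjusted p = 0.0094 in edgeR, adjusted 0.958). Scaled over the 7 libraries, Tbp, Taf11, Taf12 and Taf13 were each higher in all 3 deficient libraries, 4 of the 17 TFIID genes tested, beside 3.95% of all genes tested over the 7. In the other direction, Tbpl1, a TBP-like factor needed in late spermatogenesis, was at 63.2, 52.2, 53.4 and 50.4 CPM against 49.3, 45.5, 47.9 and 49.7 CPM (log2 fold change -0.19 with and without deficient 1), and its groups overlapped once the 7 libraries were scaled alone.

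Taf7l, an X-linked paralogue of Taf7 that acts in spermatogenesis, showed how far wildtype libraries differed among themselves. It was at 72.7, 27.1, 20.1 and 9.08 CPM in wildtype and at 20.5, 9.39, 9.50 and 17.6 CPM in deficient libraries. The groups overlapped, and wildtype 1 was far above the other 7 libraries (-1.18 ± 0.59 over 8 libraries, -1.41 ± 0.64 over 7, edgeR adjusted p 0.909 and 0.958).

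**Figure D2:**
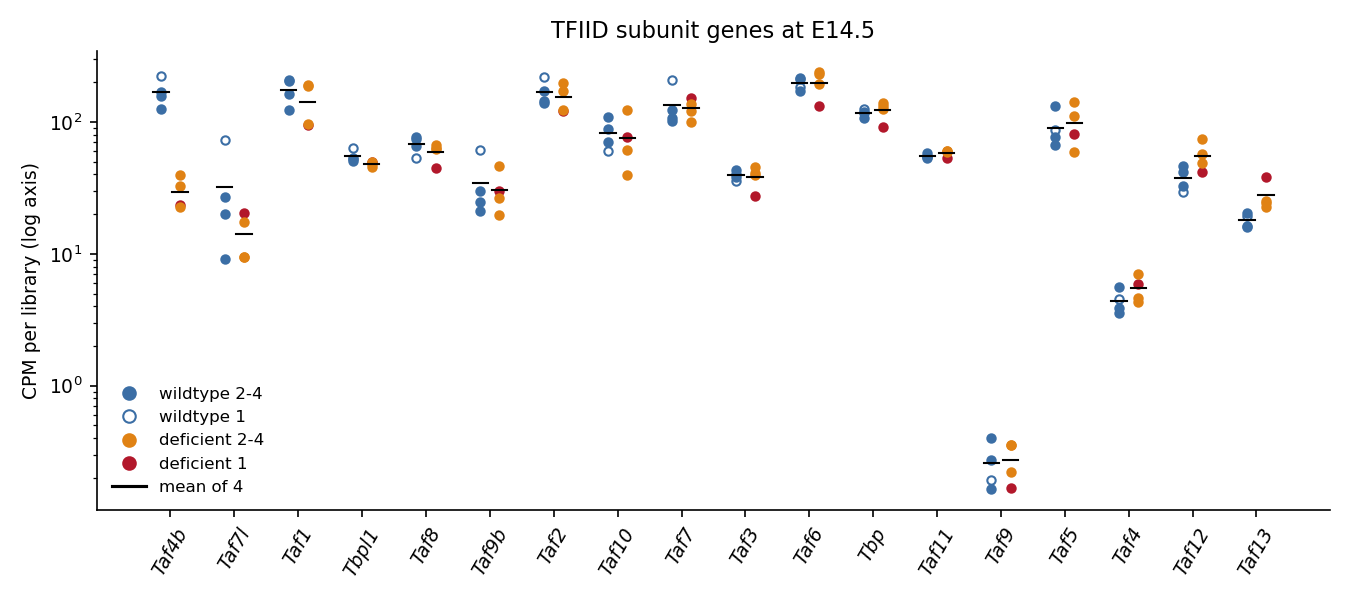
Level of Taf4b and the 17 other TFIID genes tested in each E14.5 library, in CPM on a log axis, with a bar at each group mean (wildtype 1 hollow, deficient 1 in red). Taf4b is separated between genotypes (125 to 223 against 22.5 to 39.9 CPM), while the other genes overlap between genotypes except Taf13 and Tbpl1.

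Across all 18475 genes tested, none was called by edgeR at an adjusted p of 0.05 (0%; smallest adjusted p 0.0822, for Taf4b). At an unadjusted p under 0.05, edgeR gave 778 genes (4.21%), 503 higher (2.72%) and 275 lower (1.49%) in deficient libraries. Without deficient 1, 0 of 18415 genes passed, and 856 had an unadjusted p under 0.05 (4.65%): 341 higher (1.85%) and 515 lower (2.8%). The DESeq2 Wald test called 5 genes over 8 libraries and 21 over 7. Simulated counts with the spread of these libraries held 100 genes changed by 1 log2 unit and 100 changed by 2. Over 8 libraries edgeR recovered 5 and 28 of these, and over 7 libraries 14 and 53. A gene that did not pass was therefore not shown to be unchanged. In the same simulated counts DESeq2 made 67 false calls over 8 libraries and 50 over 7, and edgeR made 1 and 5. Of the changed genes it kept, DESeq2 recovered 23 of 100 and 63 of 90 over 8 libraries. Over 7 libraries it recovered 38 of 97 and 72 of 95. Its false calls there outnumbered all its calls in the measured counts, so their number does not carry over to those counts.

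Genes that separated the genotypes in every library were few. Among the 12269 germ-cell-expressed genes tested, 195 (1.59%) were higher and 167 (1.36%) lower in all 4 deficient libraries than in all 4 wildtype libraries. Without deficient 1, 608 of 12273 (4.95%) were higher and 338 (2.75%) lower. For all genes tested without deficient 1 the shares were 3.95% higher and 3.1% lower. If genotype made no difference and libraries were alike, a gene would separate in either direction with a probability of 0.0286 over 8 libraries. Over 7 libraries that probability is 0.0571. The shares were not tested against it. The median log2 fold change of the germ-cell-expressed genes was 0.00 over 8 and 0.02 over 7 libraries. Deficient 1 alone was the highest of the 8 libraries for 29.1% of all genes tested and the lowest for 27.2%. Wildtype 1, its litter partner, was the highest for 14.8% and the lowest for 13.9%.

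The lists of germ cell genes were read against these values. Over 13 lists of germ cell, division, chromatin, stress and mitochondrial genes, 241 genes were tested and none passed in edgeR (13 had an unadjusted p under 0.05 over 8 libraries and 10 over 7). The DESeq2 Wald test called none of them over 8 libraries and 1 over 7, the meiosis gene Stra8. Over 8 libraries 1 of the 241 was higher and 7 were lower in every deficient library, and over 7 libraries 8 were higher and 7 lower. That is 0.415% higher and 2.9% lower over 8 libraries, beside 1.3% and 1.41% of all genes tested, and 3.32% higher and 2.9% lower over 7, beside 3.95% and 3.1%.

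All 19 germ cell identity genes tested had a lower mean in deficient libraries, with a median log2 fold change of -0.26. Deficient 1 was the lowest library for 14 of the 19, and without it 6 were higher and 13 lower, with a median of -0.08. Ddx4, an RNA helicase of the germ granule, was at 928, 996, 803 and 661 CPM in wildtype and at 357, 597, 811 and 694 CPM in deficient libraries. Dazl, an RNA-binding protein that licenses germ cell development, was at 1875, 2277, 2231 and 2190.4 CPM against 808, 1866, 2217 and 1954 CPM. For both genes only deficient 1 lay far from the wildtype range, and the log2 fold change went from -0.46 to -0.26 for Ddx4 and from -0.32 to -0.08 for Dazl without it.

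Tex19.1, a repressor of transposons in germ cells, was lower in every deficient library. It was at 649.6, 648, 664 and 610.3 CPM in wildtype and at 255, 600.04, 519.97 and 513 CPM in deficient libraries. The log2 fold change was -0.45 ± 0.24 over 8 libraries and -0.23 ± 0.11 over 7 (edgeR adjusted p 0.909 and 0.958). In the scaling of the 7 libraries alone its groups overlapped.

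The piRNA pathway list was lower in 22 of 23 genes over 8 libraries (median -0.33) and in 20 of 23 over 7 (median -0.38), and none passed the test. Wildtype 1 was the highest of the 8 libraries for 18 of the 23. Without wildtype 1 the median was 0.04, and without both libraries of its litter it was 0.21, so the direction turned. Piwil4, the nuclear PIWI protein that directs de novo methylation of transposons, was at 88.7 CPM in wildtype 1 but at 11.0, 15.3 and 7.48 CPM in wildtype 2 to 4 and at 31.4, 15.5, 6.22 and 19.11 CPM in deficient libraries (log2 fold change -0.76 ± 0.81 over 8, -1.17 ± 0.87 over 7). Spocd1, which links PIWIL4 to the methylation machinery, was at 59.9 CPM in wildtype 1 and at 1.07 to 3.21 CPM in the other wildtype libraries, with 12.8, 4.21, 0.589 and 4.21 CPM in deficient libraries (-1.59 ± 1.35; -2.45 ± 1.47). Dnmt3l, a cofactor of the de novo methyltransferases from the methylation list, was at 27.0 CPM in wildtype 1, at 0.889 to 1.49 CPM in wildtype 2 to 4 and at 5.62, 1.18, 0.663 and 1.65 CPM in deficient libraries (-1.74 ± 1.22; -2.71 ± 1.304). In all 3 genes the litter of wildtype 1 and deficient 1 held the highest library of each genotype.

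The most abundant members of the list per transcript length varied less. Fkbp6, a co-chaperone of piRNA loading, was at 623, 591, 444 and 379 CPM in wildtype and at 334, 347, 549 and 412 CPM in deficient libraries (-0.31 ± 0.22 over 8, -0.22 ± 0.22 over 7). Mael, a germ granule protein, was at 585, 339.7, 274 and 203 CPM against 329, 271, 295 and 368 CPM (-0.15 ± 0.30; -0.17 ± 0.33). Mov10l1, the helicase that feeds piRNA precursors to processing, was at 308, 297, 278 and 174 CPM against 147, 226, 194 and 266 CPM (-0.34 ± 0.23; -0.20 ± 0.22). All 3 overlapped between genotypes.

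Tdrd12 was an exception, with groups that did not overlap. This Tudor-domain partner of the PIWI proteins was at 130.1, 93.5, 90.1 and 85.3 CPM in wildtype and at 58.8, 59.1, 67.2 and 77.7 CPM in deficient libraries. Its log2 fold change was -0.60 ± 0.17 (unadjusted p = 0.0075) over 8 and -0.54 ± 0.19 (unadjusted p = 0.019) over 7 libraries, adjusted to 0.909 and 0.958 in edgeR. Piwil2, the PIWI protein that starts the ping-pong cycle, was at 420.03, 239, 315 and 228 CPM against 129, 226, 153 and 249.9 CPM, and these overlap (-0.67 ± 0.27 over 8, -0.51 ± 0.26 over 7). Tdrd6 was also lower in every deficient library, but at levels of at most 0.672 CPM.

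Of the 13 genes of DNA methylation and its removal, 10 were lower over 8 (median -0.17) and over 7 libraries (median -0.23), and none passed. Uhrf1, which guides the maintenance methyltransferase to replicated DNA, was at 124, 187, 176 and 166 CPM in wildtype and at 122, 124, 89.4 and 119 CPM in deficient libraries. Wildtype 1 met the deficient range, and the other 3 wildtype libraries lay above it (-0.52 ± 0.17 over 8, unadjusted p = 0.014 in edgeR, and -0.54 ± 0.18 over 7). Tet1, a dioxygenase that starts the removal of methyl groups, was at 222, 237, 373 and 358 CPM against 126, 337, 251 and 371 CPM (-0.13 ± 0.33 over 8, 0.12 ± 0.22 over 7). Trim28, the corepressor of KRAB zinc fingers, was at 534, 632, 514 and 598 CPM against 366, 361, 658 and 420.3 CPM (-0.34 ± 0.21; -0.24 ± 0.20). Both overlapped, as did the de novo methyltransferase Dnmt3a (-0.02 ± 0.29; -0.25 ± 0.27). Without the litter of wildtype 1 and deficient 1 the list median was 0.02.

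The pluripotency list had 5 genes higher and 18 lower over 8 libraries (median -0.15) and 14 higher and 9 lower over 7 (median 0.08). Deficient 1 was the lowest library for 22 of the 24 listed genes. Pou5f1 (Oct4), the gene behind the sorting reporter, was at 116, 141, 161 and 149 CPM in wildtype and at 47.2, 144, 119 and 133 CPM in deficient libraries (-0.36 ± 0.31 over 8, -0.09 ± 0.14 over 7). Utf1, a chromatin protein of pluripotent cells and the most abundant of the list per transcript length, was at 265, 472, 375 and 464 CPM against 147, 402, 466 and 365 CPM (-0.19 ± 0.34 over 8, 0.08 ± 0.20 over 7). Both overlapped between genotypes. Dppa5a, an RNA-binding protein of pluripotent cells, was at 559.99, 1239, 936 and 1346 CPM against 443, 1062, 1735 and 961 CPM (0.04 ± 0.41; 0.31 ± 0.31). Dppa4, a partner of Dppa2 at chromatin, ran the other way in wildtype 1, at 543, 358, 341 and 297 CPM against 281, 290.01, 306 and 357 CPM (-0.32 ± 0.20; -0.27 ± 0.22). These groups overlapped too.

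Nodal signalling is active for a short time in fetal male germ cells and is held in check by its own antagonists Lefty1 and Lefty2. The list was even between genotypes: 7 genes were higher and 9 lower with 8 and with 7 libraries (medians -0.02 and -0.03). The spread within genotypes was large. Nodal, the ligand, was at 29.2, 87.1, 49.7 and 65.1 CPM in wildtype and at 11.3, 55.8, 107 and 43.1 CPM in deficient libraries (-0.09 ± 0.59 over 8, 0.26 ± 0.40 over 7). Lefty2 was at 185, 757, 463 and 533 CPM against 110.5, 484, 1009.8 and 403 CPM (0.05 ± 0.61 over 8, 0.39 ± 0.45 over 7). Lefty1 was at 89.5, 378, 261 and 339 CPM against 57.9, 319, 421 and 278 CPM (0.01 ± 0.59; 0.36 ± 0.41). For these 3 genes the lowest library of each genotype came from the litter of wildtype 1 and deficient 1, and the highest of each genotype came from the litter of wildtype 2 and deficient 3.

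Meiosis genes were lower in 21 of 27 over 8 libraries (median -0.30) and in 18 of 27 over 7 (median -0.16), and none passed in edgeR. The median was -0.04 without both libraries of the deficient 1 litter and -0.52 with litter as a covariate. Summed over the list, wildtype libraries held 1469.56 to 1739 CPM and deficient libraries 757, 1328, 1458 and 1399 CPM, so the sums did not overlap, by a narrow margin for deficient 3. Stag3, a meiotic cohesin subunit, was at 442, 532, 579 and 449 CPM in wildtype and at 149, 428, 327 and 395 CPM in deficient libraries. Rec8, the meiotic cohesin that pairs with it, was at 21.7, 10.7, 10.0 and 11.2 CPM against 6.12, 9.07, 7.29 and 8.58 CPM. Both were lower in every deficient library, with log2 fold changes of -0.62 ± 0.30 and -0.79 ± 0.31 over 8, and -0.37 ± 0.15 and -0.68 ± 0.31 over 7 libraries (edgeR adjusted p 0.909 over 8 and 0.958 over 7 for both). Mei1, needed for meiotic double-strand breaks, was the third gene without overlap, at up to 1.29 CPM.

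Stra8, which responds to retinoic acid and starts the meiotic programme, depended on deficient 1. It was at 7.31, 8.41, 5.97 and 5.18 CPM in wildtype, at 7.87 CPM in deficient 1 and at 2.95, 3.31 and 3.40 CPM in deficient 2 to 4. The log2 fold change was -0.61 ± 0.38 over 8 and -1.05 ± 0.25 over 7 libraries (unadjusted p = 0.0027, edgeR adjusted p 0.958). The DESeq2 Wald test called it over 7 libraries (adjusted p 0.0372). Syce2, of the central element of the synaptonemal complex, was at 102, 221, 153 and 209.8 CPM against 91.2, 193, 301 and 161 CPM, and Tex12, its partner, at 56.1, 27.6, 25.4 and 19.2 CPM against 28.1, 21.0, 24.0 and 25.6 CPM. Both overlapped (0.12 ± 0.37 and -0.38 ± 0.32 over 8, 0.36 ± 0.29 and -0.44 ± 0.35 over 7). Prdm9, which marks the sites of meiotic recombination, was the meiosis gene that was higher in deficient 2 to 4 (1.91 to 2.20 CPM) than in every wildtype library (1.29 to 1.73 CPM), with deficient 1 at 1.49 CPM (0.31 ± 0.27 over 8, 0.43 ± 0.25 over 7).

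Division genes did not separate the genotypes. Of 28 genes, 9 were higher and 19 lower over 8 libraries (median -0.09), and 20 were higher and 8 lower over 7 (median 0.08). Deficient 1 was the lowest library for 18 of them and wildtype 1 for 7. Summed over the list, the 6 libraries outside this litter held 9516 to 11689 CPM, wildtype 1 held 6673 CPM and deficient 1 held 5324 CPM. Mki67, the marker of cycling cells, was at 84.1, 79.8, 198 and 221 CPM in wildtype and at 129, 166, 99.8 and 136 CPM in deficient libraries (-0.13 ± 0.36 over 8, -0.09 ± 0.38 over 7). Ccnb1, the main mitotic cyclin, was at 1013, 1430.3, 1336 and 1140.3 CPM against 543, 1296, 1518 and 1245 CPM (-0.10 ± 0.30; 0.15 ± 0.15). Both overlapped. Ccnb2, a mitotic cyclin, was at 296, 464, 418 and 422 CPM against 239, 471, 514 and 472 CPM, so deficient 2 to 4 were above every wildtype library (0.30 ± 0.15 over 7, 0.08 over 8, edgeR adjusted p 0.958 and 0.991).

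Of 10 genes of cell-cycle arrest, 4 were higher and 6 lower over 8 libraries (median -0.10), and 3 higher and 7 lower over 7 (median -0.22). Cdkn2a, which encodes the inhibitors p16INK4a and p19ARF, was at 2.68, 1.38, 3.16 and 3.40 CPM in wildtype and at 1.20, 1.44, 1.36 and 1.36 CPM in deficient libraries. Wildtype 2 lay within the deficient range, and the log2 fold change was -0.98 ± 0.34 over 8 and -0.91 ± 0.35 over 7 libraries (unadjusted p = 0.018 and 0.029 in edgeR). Cdkn1c, the inhibitor p57, was at 40.1 to 43.9 CPM in wildtype, at 113 CPM in deficient 1 and at 29.6, 25.9 and 45.1 CPM in deficient 2 to 4 (0.33 ± 0.43; -0.32 ± 0.20). Cdkn2d was at 20.4 to 30.1 CPM against 26.7 to 34.9 CPM (0.27 ± 0.19; 0.31 ± 0.19) and Cdkn1a at 35.0 to 47.9 CPM against 18.9 to 55.3 CPM (-0.20 ± 0.30; 0.02 ± 0.22), and both overlapped. Cdkn2c, another inhibitor, was lower in deficient 2 to 4 (0.707 to 1.18 CPM) than in wildtype (1.41 to 2.24 CPM), with deficient 1 at 4.25 CPM (-0.08 ± 0.58; -1.003 ± 0.31).

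The 15 apoptosis genes tested were even (8 higher and 7 lower, median 0.01; 6 and 9 over 7 libraries, median -0.02). Trp53, the p53 gene, was at 90.9 to 266 CPM in wildtype and 103 to 309.9 CPM in deficient libraries (-0.06 ± 0.40 over 8, 0.15 ± 0.37 over 7). Bax, the pore-forming death effector, was at 109 to 199 CPM against 90.4 to 224 CPM (-0.07 ± 0.29; 0.14 ± 0.22). Pmaip1, the BH3-only protein NOXA, was at 263, 279.8, 270.4 and 282 CPM in wildtype, at 164 CPM in deficient 1 and at 277, 298 and 364 CPM in deficient 2 to 4 (0.01 ± 0.22 over 8, 0.21 ± 0.12 over 7), and its groups did not overlap when the 7 libraries were scaled alone.

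Chromatin modifiers were lower in 25 of 30 genes over 8 libraries, by little (median -0.11), and in 19 of 30 over 7 (median -0.06). Rnf2, the ubiquitin ligase of Polycomb complex PRC1, was at 166, 209.9, 207 and 197 CPM in wildtype, at 169 CPM in deficient 1 and at 236, 241 and 228 CPM in deficient 2 to 4. Its log2 fold change was 0.16 ± 0.15 over 8 and 0.28 ± 0.12 over 7 libraries (unadjusted p = 0.039, edgeR adjusted p 0.958). Kdm5b, a histone H3 lysine demethylase and the most abundant of the list per transcript length, was at 389 to 597 CPM in wildtype and 333 to 590.1 CPM in deficient libraries (-0.10 ± 0.22; -0.01 ± 0.22). Kdm2b, a subunit of a variant PRC1 complex, was at 80.3 to 133 CPM against 49.1 to 102 CPM (-0.44 ± 0.25; -0.24 ± 0.20), and the acetyltransferase Crebbp at 78.1 to 172 CPM against 84.8 to 137 CPM (-0.17 ± 0.25; -0.19 ± 0.27). None of the 30 passed.

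Mitochondrially encoded genes kept their direction: all 13 had a higher mean in deficient libraries with 8 (median 0.27) and with 7 libraries (median 0.24), and none passed. Their summed level was 15165, 9718, 12517 and 14243 CPM in wildtype and 15867, 15374, 16680.0 and 13553 CPM in deficient libraries, which overlap. Wildtype 2 was the lowest library for 10 of the 13. mt-Nd1, a subunit of respiratory complex I, was at 2216, 1719, 1977 and 2401 CPM against 2788, 2652, 3020.2 and 2268 CPM (0.37 ± 0.17 over 8, 0.36 ± 0.15 over 7). mt-Cytb, of complex III, was at 2454 to 3468 CPM against 3038 to 3827 CPM (0.21 ± 0.17; 0.19 ± 0.15) and mt-Co1, of complex IV, at 3858 to 6508 CPM against 5772 to 6694 CPM (0.21 ± 0.20; 0.24 ± 0.18).

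Immediate early and heat shock genes, which respond to tissue dissociation, were higher in all 10 genes over 8 libraries (median 1.59) and in 9 of 10 over 7 (median 0.25). Fos, an immediate early transcription factor, was at 905 CPM in deficient 1 and at 22.2 to 179 CPM elsewhere (2.01 ± 0.95 over 8, 0.42 ± 0.60 over 7).

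The Sertoli, Leydig, interstitial and red cell lists differed more than any germ cell list. Sertoli markers were higher in 16 of 16 genes over 8 libraries (median 2.30) and in 14 of 16 over 7 (median 0.60). Leydig markers were higher in 7 of 7 (median 2.06), but lower in 7 of 7 without deficient 1 (median -2.58). Interstitial markers went from 12 of 12 higher (median 4.69) to 11 of 11 lower (median -0.91), and the 5 red cell genes from all higher (median 3.43) to all lower (median -3.69). The part of these cells in the differences of the germ cell lists was not tested. Within the litter of wildtype 2 with deficient 2 and 3, where Sertoli markers were also higher (median 2.13), the median was -0.19 for germ identity, -0.28 for the piRNA pathway, -0.31 for meiosis and 0.76 for mitochondrially encoded genes.

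**Figure D3:**
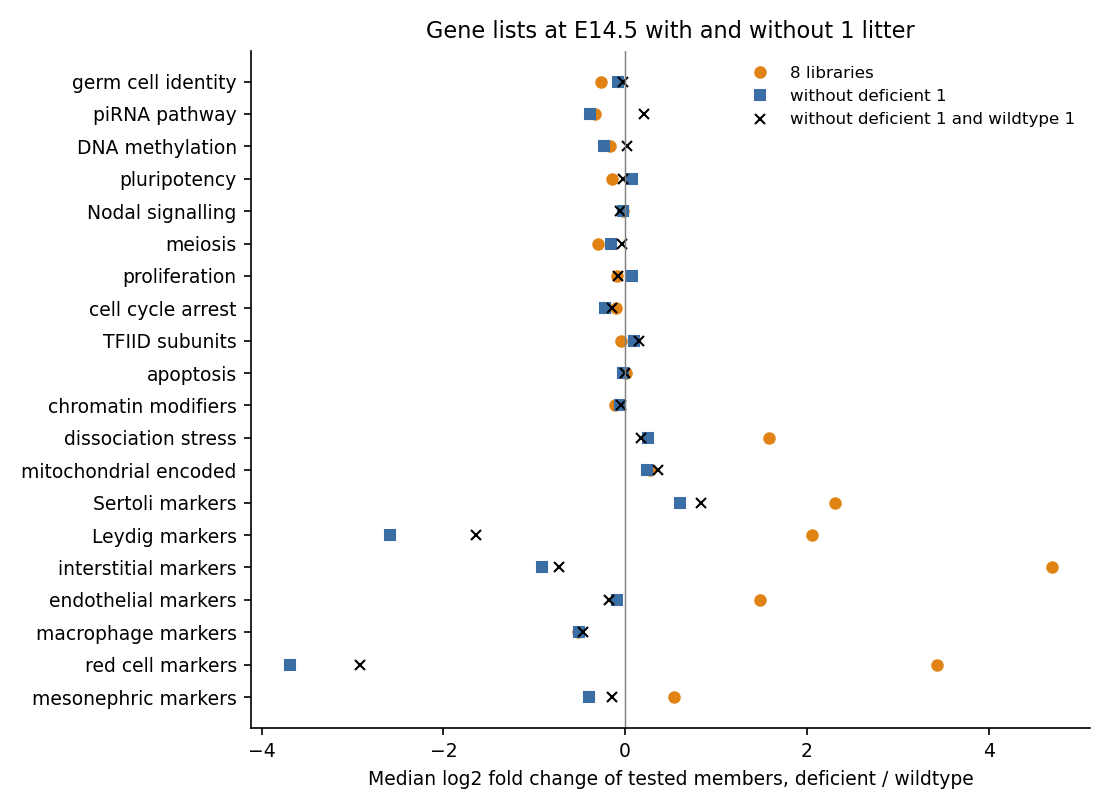
Median log2 fold change, deficient over wildtype, of each of 20 gene lists over all 8 libraries, without deficient 1, and without deficient 1 and wildtype 1. Without deficient 1, 11 of the 20 medians keep their sign. The Leydig, interstitial, red cell, endothelial and mesonephric medians turn. So do those of pluripotency, division, TFIID and apoptosis, which lie between -0.15 and 0.10 over 8 and 7 libraries. The piRNA (to 0.21) and DNA methylation (to 0.02) lists change sign only once wildtype 1 is also left out.

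Single germ-cell-expressed genes were then named by rule: the 10 higher and 10 lower genes with the smallest p among those whose groups did not overlap over 8 libraries. As these values chose the genes, they are a description, and apart from Taf4b each had an edgeR adjusted p of 0.909. Beside Taf4b, the DESeq2 Wald test called Pemt over 8 (adjusted p 0.0106) and over 7 libraries (0.00925). Over 7 libraries only, it also called Pde6b (1.01e-05), Coq9 (0.0107) and Hecw2 (0.0461). Among the lower genes, Pemt, the enzyme that methylates phosphatidylethanolamine to phosphatidylcholine, was at 26.4, 22.8, 20.1 and 21.3 CPM in wildtype and at 9.55, 10.0, 14.1 and 11.8 CPM in deficient libraries (-0.99 ± 0.21 over 8, -0.91 ± 0.19 over 7). Aars2, the mitochondrial alanyl-tRNA synthetase, was at 44.5, 64.7, 65.7 and 62.7 CPM against 28.2, 38.0, 31.8 and 37.0 CPM (-0.82 ± 0.18; -0.72 ± 0.17). Coq9, which acts in the synthesis of coenzyme Q, was at 104, 119, 103 and 108 CPM against 83.3, 66.4, 76.6 and 65.4 CPM (-0.57 ± 0.13; -0.63 ± 0.12). All 3 were lower in deficient 1 as well as in the other deficient libraries.

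Ercc1, a subunit of the nuclease of nucleotide excision repair, was at 46.0, 49.6, 42.5 and 43.5 CPM in wildtype and at 28.4, 25.8, 35.3 and 25.3 CPM in deficient libraries (-0.66 ± 0.16; -0.65 ± 0.17). Tuba3b, a testis alpha-tubulin, was at 284, 203, 150.3 and 120.3 CPM against 95.3, 94.5, 89.1 and 93.5 CPM (-1.02 ± 0.25; -1.03 ± 0.28). The 4 deficient values lie close together while the wildtype values span a wide range, and Tuba3a is a near-identical copy, so the split of reads between them is uncertain. Rnf212b, which acts in meiotic crossing over, was at 39.5, 39.3, 27.2 and 28.7 CPM against 17.6, 17.1, 20.5 and 22.4 CPM (-0.79 ± 0.20; -0.74 ± 0.21). The other lower genes were Tbc1d1 (-0.57 over 8, -0.53 over 7), a Rab GTPase-activating protein, Wnk2 (-1.03; -1.05), a kinase, and Slc25a25 (-0.58; -0.51), a mitochondrial ATP carrier.

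Among the higher genes, Pde6b, a phosphodiesterase subunit known from rod photoreceptors, was at 6.73, 5.43, 4.85 and 6.81 CPM in wildtype and at 8.56, 13.0, 13.99 and 17.2 CPM in deficient libraries (1.15 ± 0.28 over 8, 1.32 ± 0.21 over 7). Hecw2, a HECT-type ubiquitin ligase, was at 9.45, 8.67, 14.4 and 10.5 CPM against 16.9, 21.4, 17.9 and 21.6 CPM (0.86 ± 0.23; 0.93 ± 0.21). Rnf25, another ubiquitin ligase, was at 32.5, 33.3, 33.8 and 32.1 CPM against 44.4, 45.6, 41.0 and 46.1 CPM (0.43 ± 0.13; 0.44 ± 0.13). Of these 3 genes, Rnf25 varied least within wildtype.

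Mitochondrial proteins were present in this group too. Ndufb10, a subunit of respiratory complex I, was at 66.9, 88.0, 73.1 and 85.2 CPM in wildtype and at 104, 105, 131 and 94.6 CPM in deficient libraries (0.47 ± 0.15; 0.51 ± 0.16). Micos13, which shapes the cristae of the inner membrane, was at 82.3 to 93.7 CPM in wildtype and 102 to 116 CPM in deficient libraries (0.35 ± 0.11; 0.41 ± 0.11). Dbt, part of the branched-chain keto acid dehydrogenase, was at 7.61 to 10.4 CPM against 11.1 to 21.0 CPM (0.82 over 8, 0.67 over 7). Hypk, a chaperone-like partner of the NatA acetyltransferase, was at 4.59 to 6.56 CPM against 8.07 to 13.6 CPM (0.84 ± 0.26; 0.70 ± 0.22). The others were Ahsa2 (0.48; 0.47), Prorsd1 (0.64; 0.54) and Trappc2l (0.51; 0.48). No theme was tested for.

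**Figure D4:**
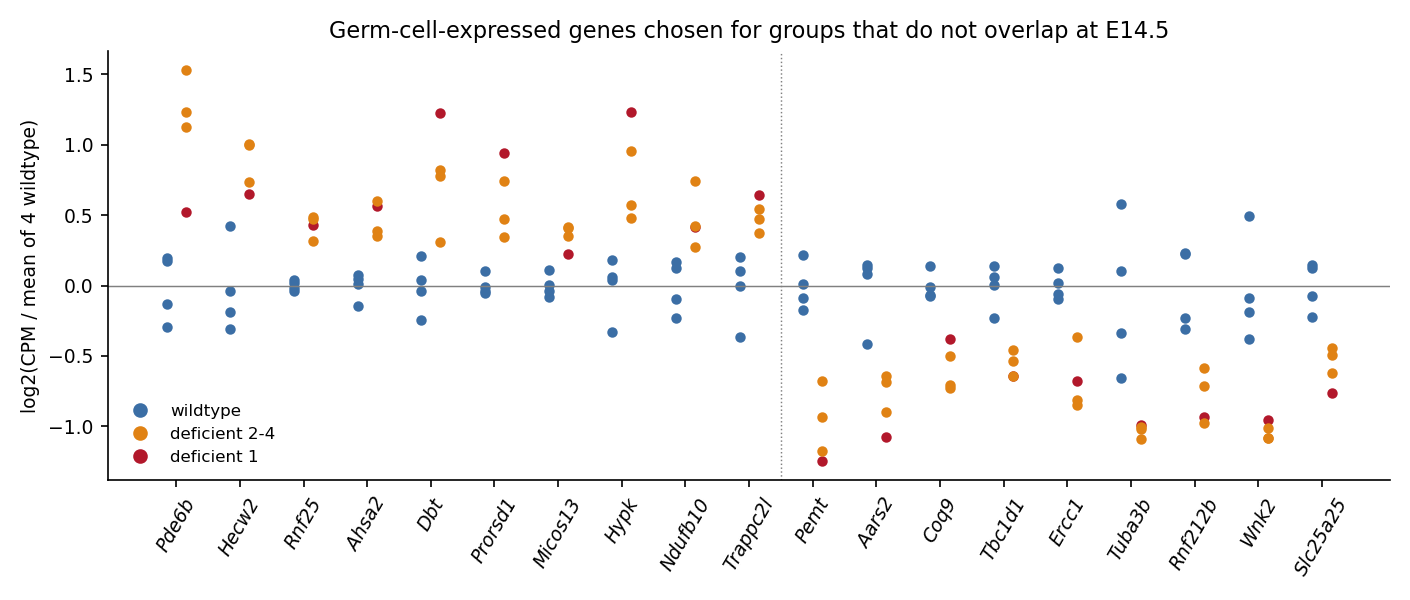
Level of each of 19 germ-cell-expressed genes in each E14.5 library, as log2 of its CPM over the wildtype mean, so that 0 is the wildtype mean; each point is 1 library. The genes were picked because their groups do not overlap; deficient 1 lies with the other 3 deficient libraries for genes such as Rnf25 (44.4 CPM beside 41.0 to 46.1).

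Without deficient 1, the same rule named further genes. Efcab10, an EF-hand protein, was at 3.81, 7.68, 7.62 and 7.60 CPM in wildtype, at 4.19 CPM in deficient 1 and at 16.6, 20.4 and 14.54 CPM in deficient 2 to 4 (1.38 ± 0.27 over 7 libraries, 1.06 ± 0.47 over 8). Wildtype 1 and deficient 1, from the same litter, were the lowest library of each genotype. Med21, a Mediator subunit, was at 93.3, 107, 105 and 104 CPM against 114, 127, 162 and 149.6 CPM (0.53 ± 0.12; 0.43 ± 0.14). The remaining higher genes were Psph (0.54 over 7, 0.40 over 8), the last enzyme of serine synthesis, Ddx60 (0.91; 0.70), a helicase of the antiviral response, Ccpg1os (0.64; 0.53), Acbd7 (0.86; 0.72) and Triml2 (0.71; 0.38), whose sign turned with litter as a covariate (-0.35 ± 0.43). Ccpg1os is an antisense gene and the use of strand in counting is not given, so its reads and those of its partner cannot be told apart.

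Several lower genes of this comparison were high in deficient 1. Fam43a was at 3.25 to 3.88 CPM in wildtype, at 9.28 CPM in deficient 1 and at 1.41, 0.773 and 1.07 CPM in deficient 2 to 4 (-1.67 ± 0.30 over 7 libraries, -0.16 ± 0.75 over 8). Nfatc4, a calcium-dependent transcription factor, was at 5.43 to 8.49 CPM, 19.09 CPM and 1.91 to 3.68 CPM in the same order (-1.30 ± 0.30; -0.05 ± 0.68). Rsrp1 (-0.66; -0.21) and the pseudogene Gstp-ps (-0.91; -0.43), which can share reads with its parent genes, followed the same pattern with smaller gaps. Map1lc3a (-0.77; -0.44), an autophagy protein, did not: deficient 1, at 87.3 CPM, lay within the wildtype range of 64.2 to 88.7 CPM. All of these had an edgeR adjusted p of 0.958 over 7 libraries. The DESeq2 Wald test over 7 libraries called Fam43a (adjusted p 6.50e-05), Nfatc4 (0.0117) and Gstp-ps (0.0156), but not Rsrp1 or Map1lc3a. Of the higher genes added by this comparison it called Efcab10 (0.00701) and Psph (0.0156).

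The E16.5 libraries of the study, 7 wildtype, 9 heterozygous and 8 deficient from other litters, gave an independent measurement of the same genes. There, 4113 of 24382 genes (16.9%) passed the test, 8.25% higher and 8.62% lower in deficient libraries. Of 12278 genes that were germ-cell-expressed at E14.5, 2652 passed (21.6%), 14.9% higher and 6.66% lower. With litter as a covariate, 2232 of the 24382 genes passed, 1033 higher and 1199 lower. E16.5 values given without mention of litter are from the fit without it. Taf4b was lower at E16.5 (-1.64 ± 0.24, edgeR adjusted p 3.74e-04). Beside Taf4b, 32 genes were named over 8 or 7 libraries, and genes named only from the deposited table are not counted among them. Of the 32, 17 were higher and 15 of these had the same sign at E16.5 (88.2%). Of all germ-cell-expressed genes, 62.5% had a positive sign there. The other 15 were lower and 12 kept their sign (80%), beside 37.5% with a negative sign. The 32 genes also had to average 1 or more on the log2 CPM scale, a rule not applied to all germ-cell-expressed genes. Of the 32, 10 passed, and 9 of these had the same sign.

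Ndufb10 rose from 100.5 ± 13.4 CPM in wildtype to 150.02 ± 16.4 CPM in deficient libraries at E16.5 (SD, n = 7 and 8), a log2 fold change of 0.58 ± 0.10 with an edgeR adjusted p of 0.00141. Coq9 fell from 112 ± 10.3 to 83.1 ± 10.8 CPM (-0.43 ± 0.09, adjusted p 0.00381). Ercc1 fell from 76.0 ± 7.85 to 42.9 ± 20.5 CPM (-0.82 ± 0.17, adjusted p 0.00318), and Pemt from 52.3 ± 9.14 to 33.3 ± 10.1 CPM (-0.65 ± 0.15, adjusted p 0.00716). Hypk, Med21, Ddx60 and Acbd7 rose and Fam43a fell at E16.5 as well, with log2 fold changes of 0.62, 0.49, 1.65, 0.81 and -0.87. Wnk2 went the other way: it was lower in every deficient library at E14.5 and rose at E16.5 (0.69 ± 0.16, adjusted p 0.00755). With litter as a covariate at E16.5, Pemt (adjusted p 0.087), Wnk2 (0.0553) and Fam43a (0.124) no longer passed, and Trappc2l did (0.0127). Whether the effect differed between the ages was not tested.

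The same comparison over all germ-cell-expressed genes that separated the genotypes at E14.5 gave the following. Of the 195 genes higher in every deficient library, 39 (20%) rose at E16.5, beside 14.9% of all germ-cell-expressed genes. Of the 166 lower genes other than Taf4b, 43 (25.9%) fell, beside 6.66%. With litter as a covariate at E16.5 the shares were 17.9% beside 7.98% and 10.8% beside 2.98%. Without deficient 1 at E14.5, 134 of 608 (22.0%) rose and 71 of 338 (21.0%) fell. No test of these shares was made.

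Coq9 and Ndufb10 were the genes of the 8-library rule that passed in the same direction at E16.5 and whose RefSeq start lay within 100 bases of the deposited gene end (92 and 55 bases), so the 250 bases before their starts are shown. As TAF4b acts at core promoters, the sequences let a reader compare a lower with a higher gene. Both were read on the strand of the gene from RefSeq's GRCm38.p6 annotation, with 3 motifs searched on both strands and printed in capitals: GGGCGG (the GC box, CCGCCC on the other strand), CCAAT and TATAAA. The motifs do not overlap each other. Coq9 (ENSMUSG00000031782, gene at GRCm38 chromosome 8, 94838321 to 94854895) reads from chr8:94838163-94838412 on the plus strand and Ndufb10 (ENSMUSG00000040048, gene at chromosome 17, 24722060 to 24724478) from chr17:24724424-24724673 on the minus strand.
Coq9: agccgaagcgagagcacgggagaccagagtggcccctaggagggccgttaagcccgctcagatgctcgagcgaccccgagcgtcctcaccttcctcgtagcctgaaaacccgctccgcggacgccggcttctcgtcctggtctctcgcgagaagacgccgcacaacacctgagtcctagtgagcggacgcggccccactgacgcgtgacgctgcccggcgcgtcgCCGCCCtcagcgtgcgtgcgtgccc
Ndufb10: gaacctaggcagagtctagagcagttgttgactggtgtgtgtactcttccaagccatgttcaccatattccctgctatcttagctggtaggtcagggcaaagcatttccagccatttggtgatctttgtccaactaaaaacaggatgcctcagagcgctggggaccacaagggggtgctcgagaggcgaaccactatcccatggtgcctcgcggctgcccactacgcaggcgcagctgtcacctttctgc
The Coq9 window held 1 GC box and had a GC content of 69.2%. The Ndufb10 window held none of the 3 motifs and had a GC content of 54.4%. In windows of this length before 9083 germ-cell-expressed genes, GGGCGG was present in 61.3%, CCAAT in 38.3% and TATAAA in 5.76%. Among the 151 matched genes higher in every deficient library the shares were 60.9%, 47.0% and 11.3%, and among the 124 lower genes 53.2%, 37.9% and 6.45%. These are descriptions of letters in a window, with no test.

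The authors' deposited table for E14.5 gave another picture. It lists 22375 genes, 18470 of them with an adjusted p, and calls 248 (1.34%) at 0.05. Of these, 239 (1.29%) are higher and 9 (0.0487%) lower in the deficient group. A DESeq2 refit of the deposited counts matched its log2 values to within 1.1e-08 when it used 5 of the 8 libraries (wildtype 1 and 2, deficient 1 to 3) with a litter term. The fold column has the opposite sign to the statistic column in all 22375 genes, and the fold column matches the direction of the counts.

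Of the 239 higher genes of the authors' deposited table, 236 were highest in deficient 1 among the 8 libraries, beside 29.1% of all genes tested. In 230 deficient 1 was more than 2 times the next highest library, with a median ratio of 8.88 over all 239. Their median log2 fold change was 3.32 in the authors' deposited table, 2.49 in the 8-library edgeR fit (186 tested) and 0.32 without deficient 1 (183 tested, 107 higher and 76 lower). The markers of other cell types held 24 of the 239: 11 Sertoli, 5 Leydig, 5 interstitial and 3 endothelial genes. Ngp, a granule protein of neutrophils, was at 85.3 CPM in deficient 1 and at most 0.0996 CPM elsewhere. Ren1, the protease renin, was at 43.4, 1.87, 44.2 and 31.9 CPM in wildtype and at 360.4, 11.5, 8.02 and 1.98 CPM in deficient libraries, so its direction turned without deficient 1 (1.66 ± 1.51 over 8, -2.06 ± 0.94 over 7). Refitting the 5-library model with its litter term called 0 genes without deficient 1 (317 at an unadjusted p under 0.05), 85 without deficient 2 and 864 without deficient 3. With deficient 1 out, its litter holds wildtype 1 alone, which the litter term absorbs. That refit rests on wildtype 2 against deficient 2 and 3, so it cannot separate the part of deficient 1 from the smaller design. Refits without wildtype 1 or 2 leave 1 wildtype library, and no conclusion is drawn from their calls.

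The 9 lower genes of the authors' deposited table were all germ-cell-expressed, and wildtype 1 was the highest of the 8 libraries for 8 of them. Beside Taf4b they included Taf7l, Tuba3b and Rnf212b, described above, and the X-linked cancer-testis genes Magea6 and Magea8. Magea8 was at 22.9, 6.23, 3.21 and 2.70 CPM in wildtype and at 3.30, 2.30, 2.76 and 1.72 CPM in deficient libraries, which overlap (-1.80 ± 0.69 over 8, -1.96 ± 0.77 over 7). It fell at E16.5 (-0.54 ± 0.12, edgeR adjusted p 0.00537). Magea6 was at 2.04, 1.34, 0.299 and 0.153 CPM against 0.147, 0.147, 0.147 and 0.130 CPM, with groups that did not overlap by a narrow margin. The 8 lower genes tested had negative log2 fold changes without deficient 1, with a median of -0.98, beside -0.93 over 8 libraries and -1.36 in the authors' deposited table. Taf4b, Magea6, Tuba3b and Rnf212b, 4 of the 9, were lower in every deficient library, beside 1.41% of all genes tested. Of the 239 higher genes, 3 were higher in every deficient library, beside 1.3% of all genes tested. These shares were not tested, and both comparisons use the same libraries.

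**Figure D5:**
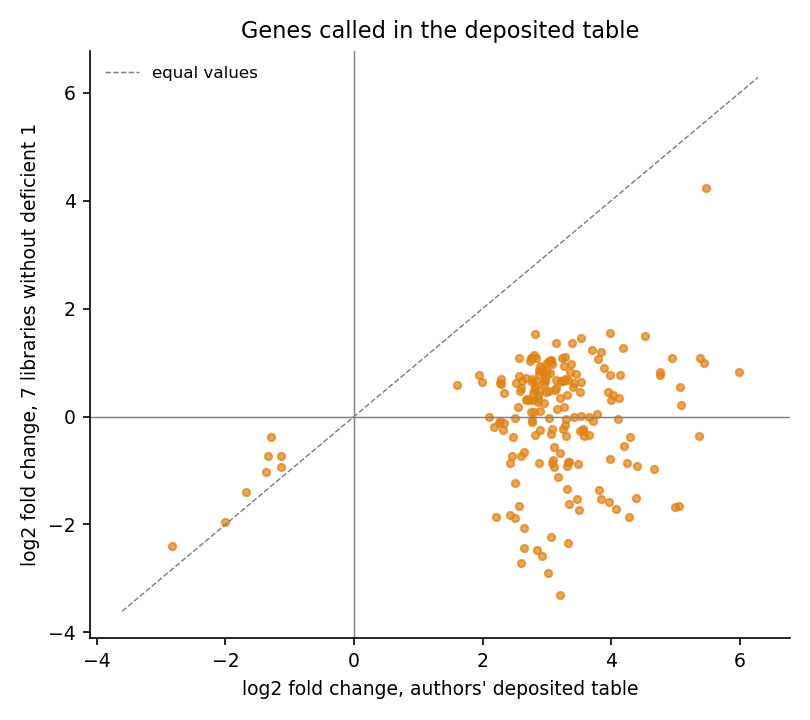
Log2 fold change of the genes called in the authors' deposited table (x axis) against the log2 fold change of the same genes without deficient 1 (y axis), for 183 higher and 8 lower genes tested. The higher genes spread around a median of 0.32 on the y axis against 3.32 for all 239 on the x axis, while the lower genes stay below 0.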

How the data were processed

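The series measured RNA from sorted prospermatogonia; 8 E14.5 libraries were compared here and 24 E16.5 libraries were used for the same genes. Per the submitters' processing notes, the steps named are Trim Galore 0.5.0, FastQC 0.11.5, HISAT2 2.1.0, SAMtools 1.9, StringTie 1.3.3b, featureCounts from Subread 1.6.2 and DESeq2, on GRCm38; the notes list these with no order or settings. The count tables hold whole reads per gene, not normalized, as deposited by the authors. The TPM tables hold transcript abundance per gene, scaled by length and library by the authors. In the authors' deposited comparison table, the log2 fold changes, their standard errors, the p-values and adjusted p-values, the Wald score (statistic) and the mean of size-factor-normalized counts (a signal averaged over libraries) were made with DESeq2, per the file headers. Use of strand in counting is not given in the sources used here, so overlapping and antisense genes cannot be told apart.

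Groups came from the labels. CPM values use totals scaled by the trimmed mean of M-values (TMM) over the 8 libraries. Counts were tested in R 4.3.3 with edgeR 4.0.16 (filterByExpr, TMM, quasi-likelihood test, Benjamini-Hochberg adjustment over all genes tested, threshold 0.05), once over 8 libraries and once without deficient 1. Positive log2 fold changes are higher in deficient libraries; ± is the SE. E16.5 was fitted over its 24 libraries. Exact permutation tests used scipy 1.17.1 on log2(CPM + 1). The tests were also run on simulated counts drawn from the means and spread of the E14.5 libraries. None of the 28 pairs of libraries held identical counts.

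The 20 gene lists held 317 symbols, of which 315 were found. The members and lists were chosen with earlier results of these data known. Genes were named by rule: germ-cell-expressed, averaging 1 or more on the log2 CPM scale, not a Gm or Rik name, with groups that do not overlap, taking the 10 smallest p per direction over 8 libraries (with no change of sign without deficient 1 or when litter enters the model) and over 7 (with no change of sign over 8), plus 5 per direction from the deposited table. Of the lists, the 3 genes with the highest mean TPM and those without overlap were named; other list genes, among them Piwil4, Spocd1, Dnmt3l, Piwil2, Uhrf1, Pou5f1, Nodal, Cdkn2a and mt-Nd1, were chosen after their values were seen. Alternatives were DESeq2 1.42.0 (size factors and Wald test), limma 3.58.1 on log2(TPM + 1), other filters and scaling, litter or replicate number in the model, and each library left out. Chosen after seeing the data were the analysis without both libraries of the deficient 1 litter and the refits of the deposited model.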

Additional observations from a re-analysis of the deposited data

Results flagged for a closer look

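In groups of 4 libraries, the highest or lowest library was compared with the gap to its nearest neighbour relative to the range of the group. Of 106 such groups, over summed gene lists and named genes, 15 had a library beyond the 95% critical value of Dixon's test. Chance flags about 1 in 20 groups that were not chosen by their values. That rate does not apply here: some genes were picked from a comparison without deficient 1, which leaves deficient 2 to 4 close together, and the marker lists are those by which deficient 1 was set aside. Deficient 1 was that library in 12 of the 15 and wildtype 1, its litter partner, in 2.

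Among the summed lists of the deficient group, deficient 1 was apart for germ cell identity (3348 CPM against 6437 to 7047), immediate early and heat shock genes (3547 against 493 to 1003), Leydig markers (4702 against 17.2 to 126), interstitial markers (4060.3 against 7.58 to 35.8), red cell markers (1874 against 1.04 to 7.78) and mesonephric markers (16.3 against 1.99 to 4.05). Deficient 4 was apart for the piRNA pathway list, at 3313 CPM against 2255 to 2432 CPM.

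Among the named genes, deficient 1 was apart for Fam43a (9.28 CPM against 0.773 to 1.41), Nfatc4 (19.09 against 1.91 to 3.68), Rsrp1 (294 against 101 to 124), Gstp-ps (8.90 against 3.09 to 3.79), Stra8 (7.87 against 2.95 to 3.40) and Psph (28.3 against 41.8 to 43.4). Wildtype 1 was apart for Aars2 (44.5 CPM against 62.7 to 65.7) and Efcab10 (3.81 against 7.60 to 7.68).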

How the results depend on the processing

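With DESeq2 size factors, the Wald test or scaling on germ-cell-expressed genes all 20 list medians kept their direction. Without deficient 1, or without both libraries of its litter, 11 did (8 and 9 moved beyond the spread between libraries), and without wildtype 1 or with the replicate number as a block 16 did. With litter as a covariate 19 did and 5 moved, among them germ cell identity, from -0.26 to -0.58. Of the values of the named genes under the alternatives, 578 kept their direction and stayed short of the threshold, and 11 passed it, all in DESeq2. These genes were chosen for groups that do not overlap and for a sign kept in other fits. Their directions were thus largely fixed by that choice and are no measure of stability. DESeq2 called 5 genes over 8 libraries and 21 over 7, and edgeR without the filter on low counts called 1 in each, Taf4b. Leaving out a further library from the 7 gave 0 to 2 calls. Refits of the deposited model with a library left out gave 0 to 1145 calls. The 1145 came from the refit without wildtype 2, which leaves 1 wildtype library, so no conclusion is drawn from it. With a deficient library left out the range was 0 to 864.

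For Taf4b the difference in mean log2(CPM + 1) was -2.48 (p = 0.0286, exact permutation test), and with any library left out it ran from -2.63 to -2.33 (exact p 0.0571). It was -2.24 without both libraries of the deficient 1 litter (exact p 0.1). In edgeR it was -2.50 when a mean count of 10 was required (adjusted p 0.124), -2.79 with litter as a covariate (0.428), -2.80 in 5 libraries of 2 litters (0.918) and -2.52 with the replicate number as a block (0.999). The block gave 0 calls (364 genes at an unadjusted p under 0.05). For libraries with the same number, the deviations from the mean of their genotype correlated at 0.43, -0.17, -0.19 and -0.08. The 2 libraries numbered 1 shared a litter, as did the 2 numbered 2. The highest correlation, 0.65, was between wildtype 2 and deficient 3, which shared a litter but not a number. The numbers were not taken as pairs. The litter covariate also gave 0 calls (1534 unadjusted), as did the 6 libraries outside the deficient 1 litter (880).

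Differences below the floor of 0.0681 to 0.106 CPM are not detectable at this depth. The floor covers counting error only, while the ± values include the spread between libraries. The cause of these dependences was not tested.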

Other observations

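Some transcripts were present at a high level in some libraries and close to the floor in others, in a pattern that genotype did not follow. These genes were chosen after their values were seen, from the calls of the alternative tests. Gm42047 was at 44.4 CPM in deficient 2 and 86.9 CPM in deficient 4, and at 0.147 to 0.421 CPM in the other 6 libraries. Zfp42-ps1, a pseudogene of a pluripotency marker, was high in the same libraries, at 3.98 and 4.86 CPM, against 0.0631 to 0.405 CPM elsewhere. Rps13-ps1, a ribosomal protein pseudogene, was at 79.2, 97.1, 116 and 75.2 CPM in wildtype 1, 3 and 4 and deficient 1, but at 5.09 to 8.65 CPM in wildtype 2 and deficient 2 to 4. Rps15a-ps8 was high in the same 4 libraries (2.76 to 5.06 CPM) and at 0 to 0.0234 CPM in the others, below the floor of 3 counts. Pseudogenes share sequence with their parent genes, so the source of these reads is uncertain.

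Jag2, a Notch ligand below the level taken as germ-cell-expressed, was lower in every deficient library: 6.26, 5.36, 7.91 and 5.15 CPM in wildtype against 3.14, 3.03, 3.06 and 2.88 CPM. DESeq2 called it over 8 and over 7 libraries (log2 fold change -1.03 in both, adjusted p 0.0198 and 0.0232), edgeR did not, and at E16.5 it did not pass (-0.25, edgeR adjusted p 0.354). Gm21055 was higher in every deficient library (0.421 to 2.67 CPM against 0 to 0.0468 CPM in wildtype, below the floor) and rose at E16.5 (2.85, edgeR adjusted p 0.00466). Smo, the transducer of hedgehog signals, was at 21.1 to 30.2 CPM in wildtype, at 107 CPM in deficient 1 and at 10.5 to 14.49 CPM in deficient 2 to 4. DESeq2 called it without deficient 1 (-1.02, adjusted p 0.00337), and over 8 libraries its edgeR log2 fold change was 0.45 ± 0.72.

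For 2 genes the deposited TPM values were far above what their CPM would give. Mki67 was listed at 4312 to 10899 TPM with 79.8 to 221 CPM, and Pdgfra at 38724 TPM in deficient 1, where it held 259.8 CPM. Ccnb1, at 543 to 1518 CPM, was listed at 179.7 to 477 TPM.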
